A study of Mus musculus with 21 samples.

Results

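Macrophages kept in tumour necrosis factor (TNF) for 24 h were compared with macrophages kept in it for 6 h, gene by gene. The comparison took 6 of the 21 libraries of the study, 3 of each time, called TNF_24h and TNF_6h here, and all 15581 genes of 47069 identifiers that passed a filter on low counts. The cells were bone-marrow-derived macrophages, which are grown in culture from bone marrow with the growth factor M-CSF. They came from wild-type C57BL/6 mice 8 to 10 weeks old and received TNF at 10 ng/ml in the medium with M-CSF. Untreated cells of the same strain, genotype and age, taken at 0 h and called Ctrl_0h (3 libraries), are given beside them as a reference level. No untreated cells of 6 h or 24 h were analysed here, so the comparison holds the time in culture as well as the time with TNF, and the contributions of these cannot be told apart. It is not stated in the labels whether the libraries within a group are from different cultures or mice. P values and standard errors then measure only the spread between libraries of a group. That spread was estimated from all 21 libraries of the study and not from the 6 compared alone. RNA came from all cells of a culture, so fewer cells of a type and less RNA per cell cannot be told apart.

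TNF is a cytokine that macrophages both make and sense. Its receptor Tnfrsf1a recruits adaptor proteins that free NF-kB from its IkB inhibitors, and NF-kB then switches on genes for chemokines, for cytokines and for its own inhibitors. In macrophages TNF also leads to a small release of interferon beta, which acts on the same cells through its receptor and raises interferon-stimulated genes with a delay. Cells in M-CSF divide, and TNF is known to slow their division.

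DNA in front of some of these genes carries short motifs that NF-kB, the interferon-activated factors or the cell cycle repressor DREAM recognise. The 250 bases before the start of 5 genes are shown because members of their lists were called between the times and hold such matches, and the genes were chosen after their values were seen. Sequences are from RefSeq on GRCm38.p6 and read 5′ to 3′ on the strand of the gene. Capitals mark matches on either strand to the interferon-stimulated response element (ISRE, TTTC and TTTC with 2 bases of any kind between), the gamma-activated site (GAS, TTCNNNGAA), the NF-kB motif and the cell cycle homology region (CHR, TTTGAA). In each gene only the motifs picked for it are in capitals, and matches to the others stay in lower case. They are matches of letters and not measured binding sites. Cxcl10 (chr5:92348890-92349139, minus strand) holds an ISRE and, nearer the start, matches to the NF-kB motif, of which 2 overlap each other. Rsad2 (chr12:26456453-26456702, minus strand) holds an ISRE. Irf1 (chr11:53769764-53770013, plus strand) holds a GAS and an NF-kB motif, and B2m (chr2:122147437-122147686, plus strand), a gene that fell, holds an NF-kB motif. B2m also holds matches to the ISRE and the CHR, which are left in lower case. Cdk1 (chr10:69352913-69353162, minus strand) holds 2 CHR matches.
Cxcl10: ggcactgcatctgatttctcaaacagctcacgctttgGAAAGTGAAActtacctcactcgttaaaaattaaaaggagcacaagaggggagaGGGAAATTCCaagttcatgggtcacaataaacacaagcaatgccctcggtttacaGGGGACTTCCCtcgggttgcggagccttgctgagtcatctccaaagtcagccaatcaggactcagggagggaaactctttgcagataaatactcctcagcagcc
Rsad2: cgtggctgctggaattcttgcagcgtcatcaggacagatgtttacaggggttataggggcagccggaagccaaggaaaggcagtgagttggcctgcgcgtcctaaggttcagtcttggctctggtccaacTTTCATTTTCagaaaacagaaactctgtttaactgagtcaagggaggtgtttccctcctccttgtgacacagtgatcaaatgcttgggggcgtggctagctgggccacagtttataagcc
Irf1: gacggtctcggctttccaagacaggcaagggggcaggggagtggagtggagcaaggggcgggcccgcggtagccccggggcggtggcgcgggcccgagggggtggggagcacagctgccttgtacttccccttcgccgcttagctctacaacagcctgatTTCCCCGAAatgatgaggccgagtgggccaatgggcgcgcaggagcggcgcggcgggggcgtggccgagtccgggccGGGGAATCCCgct
B2m: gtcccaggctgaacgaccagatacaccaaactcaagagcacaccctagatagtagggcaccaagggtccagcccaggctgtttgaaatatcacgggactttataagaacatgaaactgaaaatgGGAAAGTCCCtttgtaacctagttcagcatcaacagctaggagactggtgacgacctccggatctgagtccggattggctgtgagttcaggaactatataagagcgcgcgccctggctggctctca
Cdk1: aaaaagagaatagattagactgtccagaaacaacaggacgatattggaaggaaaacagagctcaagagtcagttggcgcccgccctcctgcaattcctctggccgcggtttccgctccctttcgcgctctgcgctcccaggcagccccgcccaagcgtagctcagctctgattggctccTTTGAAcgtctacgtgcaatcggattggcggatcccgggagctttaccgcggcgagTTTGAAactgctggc

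Over 27025 RefSeq promoter windows of 300 bases, 250 before and 50 after the start, an ISRE was in 3.49%, a GAS in 8.47%, an NF-kB motif in 8.18% and a CHR in 18.1%. Among the gene lists used below, 16 of 29 promoters of interferon-stimulated antiviral genes held an ISRE (55.2%), and 6 of 11 of the guanylate-binding and immunity-related GTPases held a GAS (54.5%). The NF-kB motif was in 10 of 18 promoters of the NF-kB subunits and inhibitors (55.6%), and the CHR was in 17 of 24 of the mitosis genes (70.8%). An E2F motif (TTTNGCGC) was in 8 of 25 promoters of DNA replication genes (32.0%) and in 1.38% of all. The lysosomal CLEAR motif (TCACGTGA) was in 5 of 25 promoters of lysosome genes and in 1.01% of all. Sterol (TCACNCCAC), AP-1 (TGANTCA) and antioxidant (TGACNNNGC) response motifs were in 1 of 17 promoters of cholesterol synthesis and uptake genes (5.88%), 5 of 16 of metalloproteinases, matrix and tissue factors (31.2%) and 5 of 19 of oxidative stress genes (26.3%), and in 1.22%, 7.93% and 12.5% of all. The motifs were also found outside the list each was paired with. An ISRE was in 10 of 11 promoters of the GTPases (90.9%) and 5 of 18 of MHC class I genes (27.8%), an NF-kB motif in 9 of 18 of MHC class I genes, and a CHR in 5 of 11 of the GTPases (45.5%). A promoter was matched for 628 of the 811 genes of the lists.

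Of the 15581 genes tested, 3675 (23.6%) differed between the times, 1980 higher (12.7%) and 1695 lower (10.9%) at 24 h. A gene was called here at an adjusted p below 0.05 in edgeR's quasi-likelihood test, and "rose" and "fell" are used only of called genes, always for TNF_24h against TNF_6h. Among the called genes 875 rose at least 2-fold (5.62% of those tested) and 540 fell at least 2-fold (3.47%). Changes of 4-fold or more were found for 310 that rose (1.99%) and 124 that fell (0.796%). In 6551 genes (42.0%) the 3 libraries of one time did not overlap with the 3 of the other. For comparison, TNF_6h against Ctrl_0h gave 6117 called genes (39.3%) and TNF_24h against Ctrl_0h gave 7054 (45.3%), and these share the Ctrl_0h libraries. Levels are given as CPM, counts scaled to a common library size with TMM factors, and depend on the length of a gene, so they are compared between libraries and not between genes. Changes are log2 fold changes ± standard error, where 1 is a doubling. The median over all genes tested was 0.0073. For genes whose levels are given library by library, values stand in the order of replicates 1 to 3. In each of them other than Nos2, Csf1r and Apoe the libraries of 6 h and of 24 h did not overlap.

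**Figure D1:**
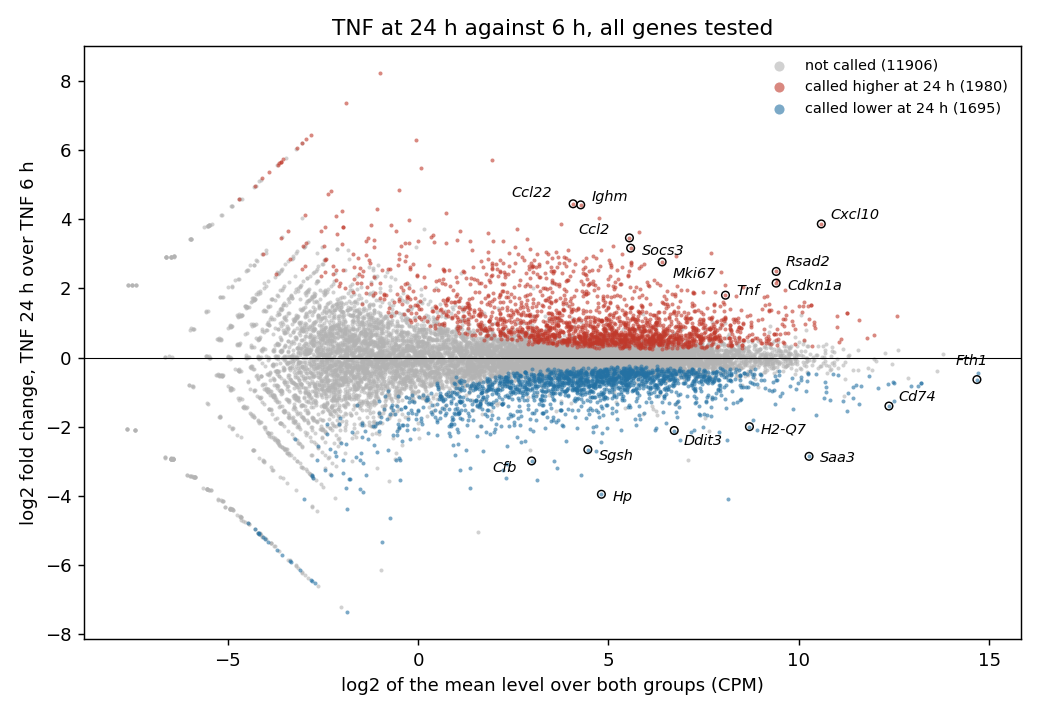
Each point is 1 of the 15581 genes tested, with its mean level over TNF_6h and TNF_24h (log2 CPM) on the x axis and its log2 fold change on the y axis, and called genes in colour. Circled genes are described in the text. Cxcl10 combines a high level with a change of 3.86, Saa3 and Hp lie among the strongly lowered genes at -2.85 and -3.95, and the diagonal lines of points at the left are genes with few counts.

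The 6 libraries held between 31664890 and 38150482 counts. TNF_24h differed more among its replicates than TNF_6h: chi-square divided by its degrees of freedom for 2 libraries of a group was 14.4 to 17 in TNF_6h, and 29.1 (replicates 1 and 2), 40.4 (2 and 3) and 107 (1 and 3) in TNF_24h. Replicate 3 of TNF_24h was below replicate 1 in short genes and above it in long genes, with a median log2 difference of -0.443 in the 20% of genes that are shortest and 0.401 in the 20% that are longest. Between the times the median log2 change went from 0.162 in the 20% of genes with the lowest GC content to -0.149 in the 20% with the highest. Between the same sets of genes the share called lower went from 5.33% to 20%, and the share called higher from 19.6% to 10%. Offsets for length and GC content were therefore tried as an added alternative. The share of counts in mitochondrial genes was 0.599% to 0.733% at 6 h and 1.25% to 1.5% at 24 h, and the 10 genes with the most counts held 13.2% to 13.6% and 9.21% to 10.3%. Whether any of these played a part in the results below was not tested beyond the alternatives given. In the reference group, 27761 genes had a count in replicate 2 of Ctrl_0h and at most 20631 in any other library of the study, so low levels in that library are read with care. Of 8 macrophage markers none was at 0 in any group, and their summed level was 39090 to 42070 CPM at 6 h and 28470 to 34090 at 24 h. Lyz2 made up most of this sum, with 31140, 32150 and 29640 CPM at 6 h and 23820, 24460 and 19500 at 24 h. Of the 8 markers 3 fell, Lyz2 among them, and 5 were not called. Defining markers of other cell types were near 0 at both times: sums stayed at most 5.99 CPM for fibroblast, 3.84 for T and NK cell, 4.47 for dendritic cell and 1.14 for erythroid markers. Neutrophil markers summed to 151.8 to 165.4 CPM at 6 h and 64.0 to 80.7 at 24 h, of which the receptor gene Csf3r made up nearly all, with Mpo, Ngp and Retnlg at 0 in all 6 libraries. Eosinophil, mast cell and basophil markers summed to 10.18 to 13.1 CPM at 6 h and 6.59 to 7.32 at 24 h, nearly all of it the receptor gene Ccr3, with Fcer1a and Ms4a2 at 0 in all 6 libraries.

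Genes were also read in 37 lists by function, which hold 811 distinct genes. Of these 776 had enough counts to be tested, 29 had not and 6 had no identifier in the table. The filter was run over all 7 groups of the study. A gene silent at 1 or both times of TNF could therefore pass only through its level in another group. Counts over tested members and shares over all genes tested include such genes, and the counts describe those members alone. A fit of the 6 libraries alone tested 13143 genes. Lists of cell division, of chemokines and of cholesterol synthesis lay on the side of higher levels at 24 h, while MHC class II presentation, lysosome and MHC class I lay on the side of lower levels. Near the background of all genes (23.6% called) were glycolysis, with 2 higher and 2 lower of 17, and the TCA cycle, with 1 and 3 of 20. So were early response genes, with 5 and 2 of 28. Not far above it were acute phase and serpin A3 genes (28.6% called) and osteoclast and cell fusion genes (30.8%). The list of cholesterol efflux, LXR targets and fatty acid synthesis was similar (30%). Respiratory chain and ATP synthase genes lay below it, with 2.7% called.

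**Figure D2:**
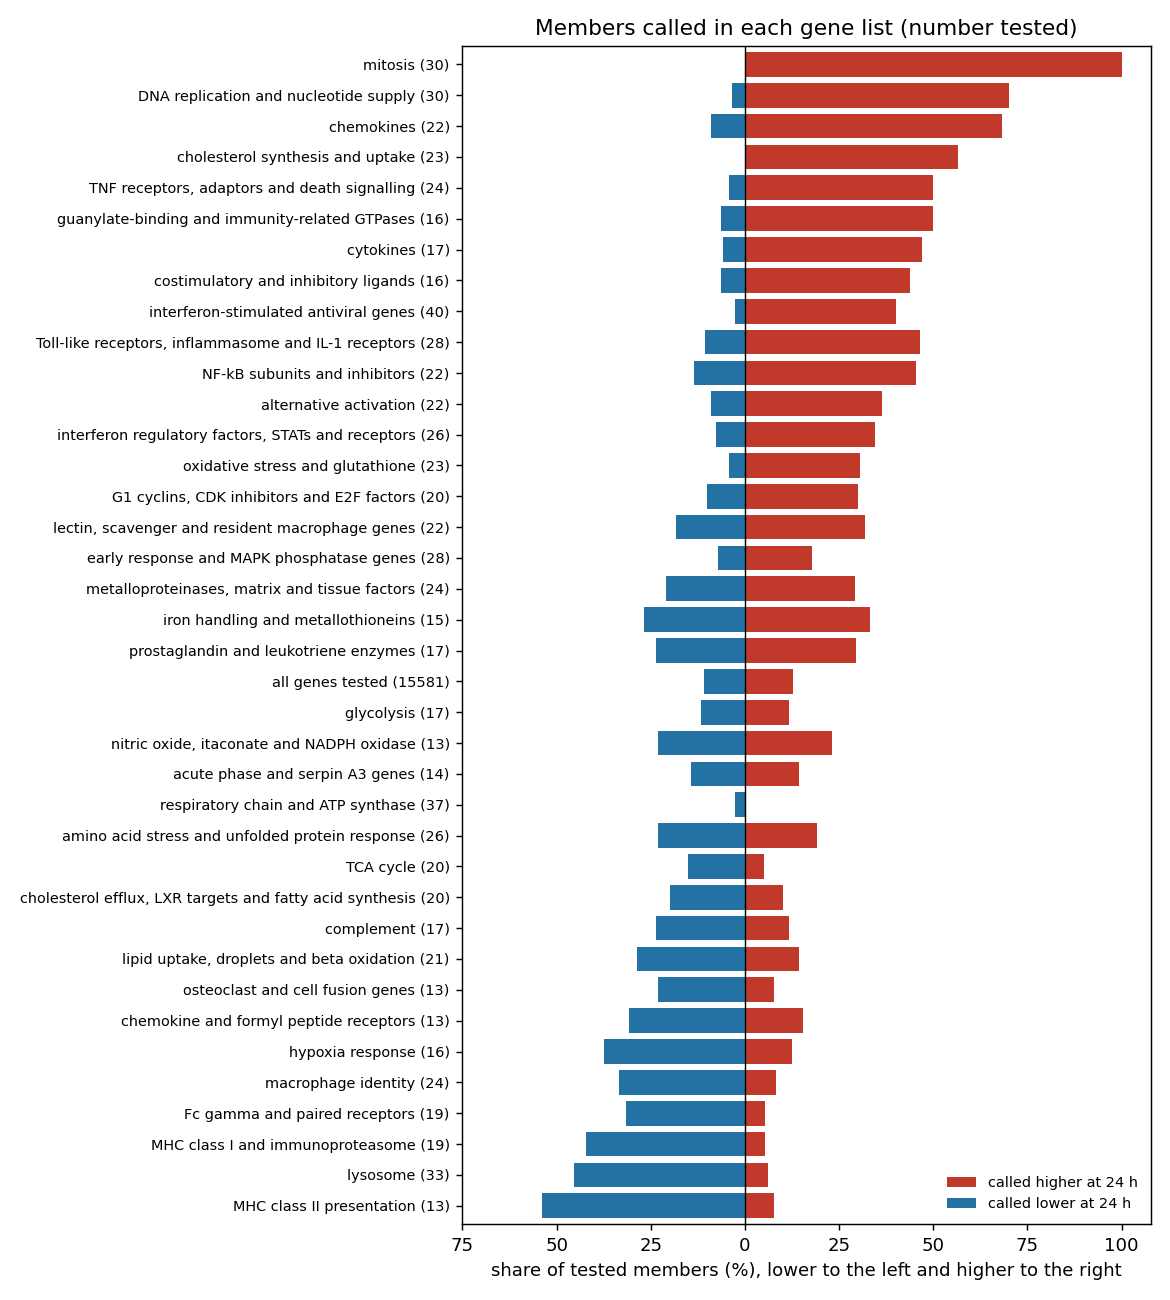
Bars give, for each of the 37 gene lists and for all genes tested, the share of tested members (%) called higher at 24 h (right) and lower at 24 h (left), with the number tested in brackets. All 30 mitosis genes were higher, 7 of 13 MHC class II genes and 15 of 33 lysosome genes were lower, and over all genes 12.7% were higher and 10.9% lower.

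Chemokines, the secreted proteins that draw leukocytes to a site, rose as a group. Of 22 chemokine genes tested 15 rose, 2 fell and 5 were not called, with a median change of 1.82. In 20 of the 22 the libraries of both times did not overlap, as was so for 42.0% of all genes tested. Together the 22 genes went from 3582 ± 235 CPM (SD, n = 3) at 6 h to 7827 ± 570 at 24 h, beside 1078 ± 80.3 in Ctrl_0h. Cxcl10, a ligand of CXCR3, a chemokine receptor of T cells (ENSMUSG00000034855, chromosome 5, 92346638 to 92348889 in GRCm38.p6), had 209.5, 196 and 190.4 CPM in replicates 1 to 3 at 6 h and 2713, 3235 and 2728 CPM at 24 h. Its change was 3.86 ± 0.56 (adjusted p = 4.13e-05), a 14.6-fold difference on top of a level that already lay far above the 4.997, 2.91 and 7.31 CPM of Ctrl_0h. Its neighbours Cxcl9 and Cxcl11, ligands of the same receptor, rose by 3.10 ± 0.42 and 1.82 ± 0.42.

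Ccl22, a ligand of the receptor CCR4 on regulatory and helper T cells (ENSMUSG00000031779, chromosome 8, 94745684 to 94751388), was nearly silent at 6 h with 1.54, 1.37 and 1.51 CPM and reached 31.0, 32.1 and 33.5 CPM at 24 h. Its change of 4.45 ± 0.23 (adjusted p = 3.22e-10) was the largest among the called genes that reach a mean of 10 CPM at either time and show no overlap. Predicted genes, pseudogenes and genes without a symbol were left out of this ranking. The monocyte attractant Ccl2 (ENSMUSG00000035385, chromosome 11, 82035577 to 82037452) went from 8.14, 8.08 and 7.22 to 90.5, 87.3 and 80.5 CPM, a change of 3.46 ± 0.14 (adjusted p = 1.7e-11). For Ccl2 the level at 6 h also lay below all Ctrl_0h libraries, which had 20.6, 17.3 and 14.7 CPM. Ccl7 and Ccl12, which lie near Ccl2 on chromosome 11 and bind the same receptor CCR2, rose by 3.85 ± 0.31 and 4.02 ± 0.58. Ccl8, the next gene of the cluster, had 7.82 ± 1.12 CPM at 6 h and 4.57 ± 1.502 at 24 h and was not called (adjusted p = 0.366).

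Chemokines that draw neutrophils were higher at 24 h as well, Cxcl2 by 1.78 ± 0.11, Cxcl1 by 1.82 ± 0.41 and Cxcl3 by 3.33 ± 0.65, though Cxcl1 stayed at 5.54 ± 0.483 CPM and Cxcl3 at 2.44 ± 0.297 CPM. Among the macrophage inflammatory chemokines Ccl4 and Ccl3 rose by 1.55 ± 0.18 and 0.53 ± 0.13, and the RefSeq spans of these 2 genes overlap, so reads could be counted for either. Ccl5 (ENSMUSG00000035042, chromosome 11, 83525778 to 83530518) instead had 1105, 932 and 824 CPM at 6 h and 388, 453 and 284 CPM at 24 h, a change of -1.35 ± 0.22 (adjusted p = 0.000159) with no overlap, from 2.59, 1.45 and 1.73 CPM in Ctrl_0h. Cxcl14 was the other chemokine to fall, from 4.09 ± 0.900 to 2.33 ± 0.613 CPM. The number of chemokines called lower was 1 without replicate 1 or 3 of TNF_6h or replicate 3 of TNF_24h, and 4 with offsets for length and GC content.

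Among 17 cytokine genes tested 8 rose, 1 fell and 8 were not called, with a median change of 0.93. Tnf itself (ENSMUSG00000024401, chromosome 17, 35199367 to 35202007) had 119, 129.9 and 111 CPM at 6 h and 419, 469 and 371 CPM at 24 h, beside 30.7, 25.4 and 23.04 in Ctrl_0h, a change between the times of 1.80 ± 0.15 (adjusted p = 7.79e-08). Tnfsf10, which encodes the death ligand TRAIL, rose from 8.34, 9.78 and 9.32 to 58.6, 80.5 and 80.9 CPM, and the 2 subunits of IL-27, Il27 and Ebi3, rose by 2.53 ± 0.28 and 1.15 ± 0.16. The anti-inflammatory Il10 had 3.72, 3.91 and 2.78 CPM at 6 h, 16.4, 17.1 and 17.7 at 24 h and 4.41, 3.65 and 4.11 in Ctrl_0h, with no overlap between the times. Il15, which sustains natural killer cells, and Csf1, the gene of M-CSF, rose by 1.58 ± 0.22 and 1.97 ± 0.21. Il6 had 2 counts in all at 6 h, both in replicate 2, and 174 at 24 h, at a level of only 1.91 ± 0.342 CPM. The ratio was 87.8 per scaled library total (95% interval of the counting error 23.9 to 730). This interval takes each count as independent and leaves out the spread between libraries, so it may be too narrow. Il1b stayed low, with 5.06, 6.68 and 4.71 CPM at 6 h and 3.16, 3.29 and 2.52 at 24 h. These did not overlap, but Il1b was not called (adjusted p = 0.121), and it was called lower with no filter on low counts, in a fit of the 6 libraries alone and with the length and GC offsets. The interferon gene Ifnb1 had 0.517 ± 0.219 CPM at 6 h and 0.983 ± 0.603 at 24 h (adjusted p = 0.563). The gene that fell was Tnfsf13b, the B cell survival factor BAFF, from 2.89 ± 0.300 to 0.733 ± 0.246 CPM.

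Receptors for chemokines and formyl peptides gave 2 that rose and 4 that fell of 13 tested. Cxcr4, the receptor that holds cells in bone marrow, had 228, 250.2 and 257 CPM at 6 h and 52.0, 57.5 and 61.6 at 24 h, a change of -2.10 ± 0.19 (adjusted p = 2.29e-07) to a level below the 157, 91.9 and 161 of Ctrl_0h. Cx3cr1, the fractalkine receptor, went the other way, from 35.3, 43.9 and 37.7 to 140.3, 151 and 149 CPM, and so did Ccrl2, a receptor that binds chemerin, by 1.63 ± 0.27. Leaving out any 1 of the 6 libraries except replicate 3 of TNF_6h left 2 called lower.

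**Figure D3:**
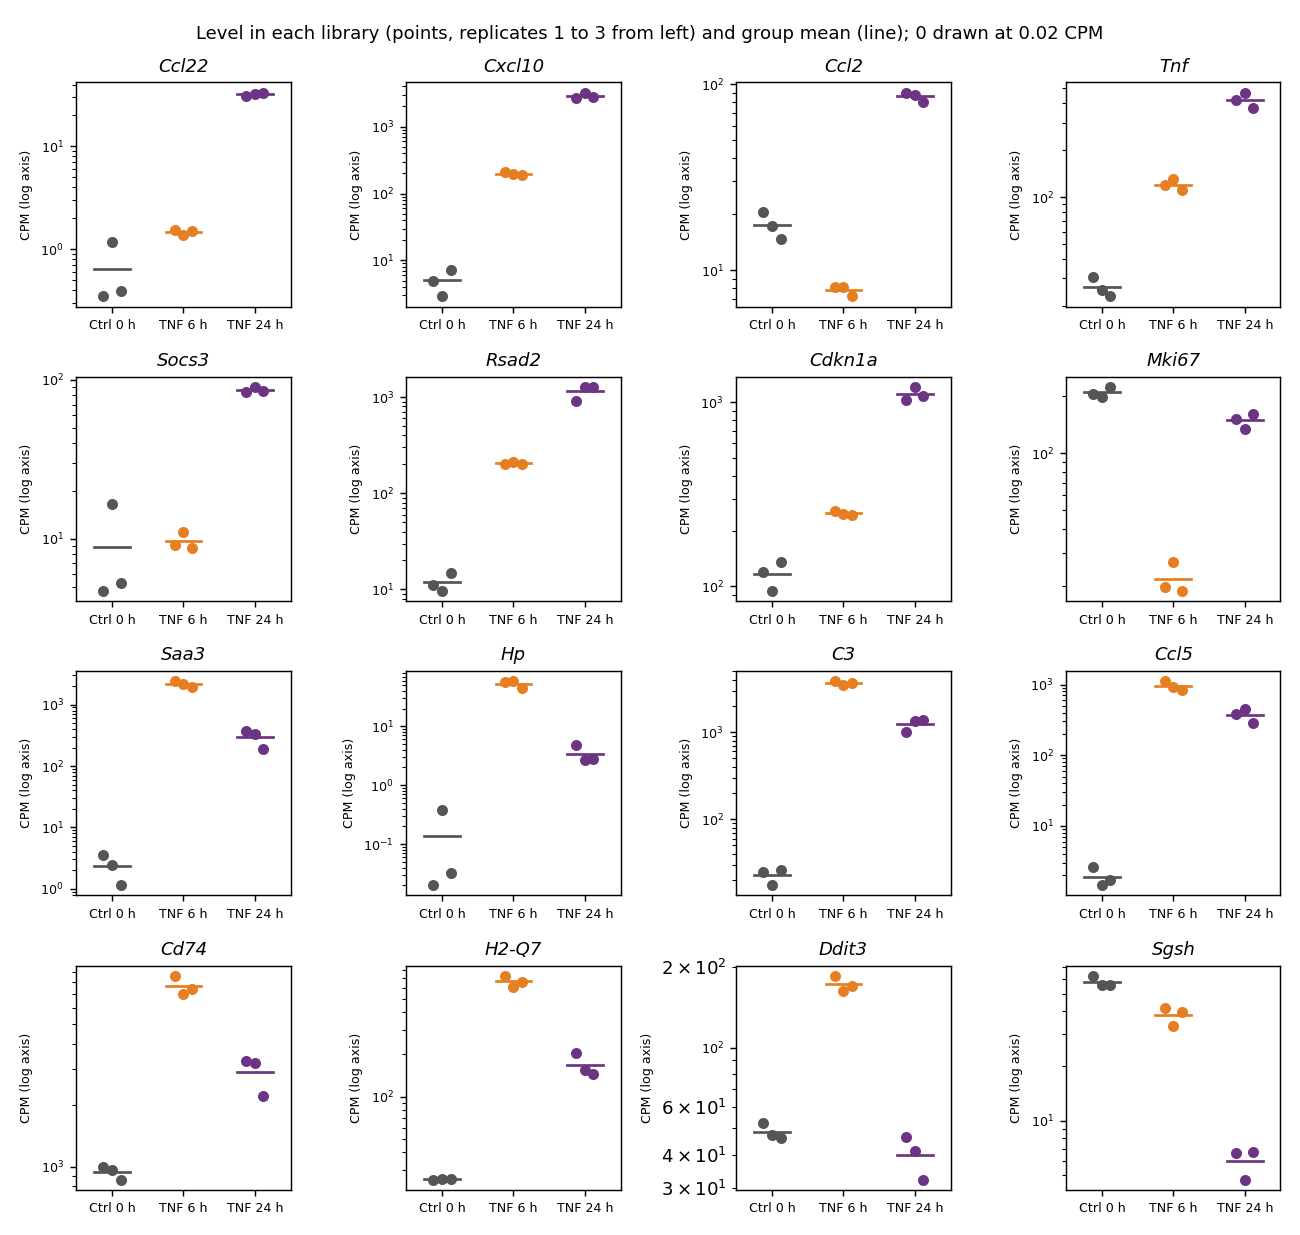
Levels of 16 genes are plotted by library (CPM, log axis) for Ctrl_0h, TNF_6h and TNF_24h, with points for replicates 1 to 3 from left to right and a line at the group mean. Ccl22, Cxcl10, Socs3, Rsad2 and Cdkn1a were highest at 24 h, Saa3, Hp, C3, Ccl5, Cd74, H2-Q7 and Ddit3 were highest at 6 h, and Ccl2 and Mki67 were lowest at 6 h.

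Of the 22 NF-kB subunits, inhibitors and regulators tested 10 rose and 3 fell, with a median change of 0.41. Both the genes that rose and those that fell include inhibitors of the pathway. Nfkbia, the inhibitor IkB alpha, had 340.1, 339 and 327 CPM at 6 h and 533, 571 and 510.0 at 24 h, a change of 0.68 ± 0.12 (adjusted p = 0.00024), beside 77.2, 52.3 and 73.0 in Ctrl_0h. Tnfaip3, which encodes the ubiquitin-editing enzyme A20 (ENSMUSG00000019850, chromosome 10, 19000910 to 19015410), had 64.2, 67.4 and 63.3 CPM and then 113, 134 and 161, a change of 1.07 ± 0.15 (adjusted p = 2.6e-05). Nfkbie and Zfp36, a protein that destabilises Tnf mRNA, rose by 0.95 ± 0.16 and 1.16 ± 0.19. Of the 5 subunits Nfkb1 rose by 0.89 ± 0.11, while Rela, Rel, Relb and Nfkb2 were not called, at changes of 0.26, 0.49, 0.078 and 0.33. Nlrc5, a member of the list that is better known as the activator of MHC class I genes, rose from 90.6, 106 and 101 to 178, 248 and 309 CPM. The 3 that fell were Otulin, Irak3 and Zc3h12a, all negative regulators of the pathway, by between 0.38 and 0.53 on the log2 scale. Without replicate 2 of TNF_6h or of TNF_24h, 1 was called lower.

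Among 24 TNF receptors, adaptors and death signalling genes 12 rose and 1 fell. Tnfrsf1a, the receptor present on nearly all cells, rose from 243, 223 and 228 to 345, 369.7 and 315 CPM, a change of 0.57 ± 0.13 (adjusted p = 0.00272). Tnfrsf1b, the second TNF receptor, had 822, 814 and 784 CPM at 6 h and 659, 749.7 and 772 at 24 h and was not called (adjusted p = 0.395), at both times far above the 248, 181 and 237 of Ctrl_0h. Genes of both death and survival were among those that rose. Fas and Casp8 rose by 1.18 ± 0.15 and 0.60 ± 0.16, and the necroptosis genes Mlkl and Ripk3 by 0.94 ± 0.21 and 0.80 ± 0.16. On the survival side Cflar, Birc2, Birc3 and Bcl2a1b rose by 0.81 ± 0.17, 0.75 ± 0.12, 0.62 ± 0.14 and 1.34 ± 0.29, and Bcl2a1b has near-identical copies, so its reads may be split. Bcl2l11, the death gene Bim, was the member that fell, by 0.49 on the log2 scale. Bmf, a related death gene outside the list, had 24.6, 26.7 and 23.9 CPM at 6 h and 5.08, 4.13 and 4.93 at 24 h, a change of -2.41 ± 0.16 (adjusted p = 6.02e-09). In the alternatives 1 to 4 members of the list were called lower, 2 of them without replicate 3 of TNF_24h.

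Early response genes and MAPK phosphatases, most of which respond soon after a stimulus, gave 5 that rose and 2 that fell of 28, with a median of -0.13. The called members made up 25% of the list, near the 23.6% called over all genes tested. Myc rose from 5.03, 5.19 and 4.71 to 14.4, 13.4 and 14.8 CPM, a level close to the 12.5, 13.4 and 12.6 of Ctrl_0h, and the phosphatase genes Dusp2 and Dusp6 rose by 1.33 ± 0.18 and 0.84 ± 0.25. Dusp6 was not called without replicate 1 (adjusted p = 0.0765) or 2 (0.0524) of TNF_6h or replicate 3 of TNF_24h (0.123). Fos and Klf6 rose by 0.40 ± 0.13 and 0.48 ± 0.14, whereas Dusp4 and Nr4a1 fell by 0.78 and 1.23. The count of 5 fell to 2 without replicate 1 of TNF_6h or replicate 3 of TNF_24h and to 3 without replicate 3 of TNF_6h, and 1 was called lower without replicate 1 or 2 of TNF_24h.

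Interferon-stimulated antiviral genes stood above Ctrl_0h at 6 h, and part of them rose further by 24 h. The 40 genes tested summed to 2304 ± 286 CPM in Ctrl_0h, 14190 ± 568 at 6 h and 21020 ± 1600 at 24 h, and 16 rose, 1 fell and 23 were not called, with a median change of 0.71. Rsad2, which encodes the antiviral enzyme viperin (ENSMUSG00000020641, chromosome 12, 26442743 to 26456452), had 201, 212 and 203 CPM at 6 h and 915, 1277 and 1273 at 24 h, a change of 2.49 ± 0.56 (adjusted p = 0.00272). The kinase gene Cmpk2, its neighbour in the genome, had 232, 245 and 247 and then 836, 1219.8 and 1348 CPM. Mx1 and Mx2, of a GTPase family, rose by 2.05 ± 0.37 and 2.08 ± 0.42, and RefSeq lists Mx2 as a transcribed pseudogene. Ifit1 and the RNA sensor Ifih1 rose by 1.77 ± 0.57 and 1.42 ± 0.28. The oligoadenylate synthetase genes Oas1a and Oas3 and the related Oasl2, which act on viral RNA, had changes of -0.25, -0.27 and 0.083 and were not called. Bst2, the tether that holds virions on the cell, was the member that fell, from 2257 ± 196 to 997 ± 208 CPM, and was not called without replicate 3 of TNF_24h. The number that rose depended on the genes and libraries in the fit, with 27 in a fit without the low-count filter and in the 6 libraries alone, 26 in the 9 libraries of Ctrl_0h, TNF_6h and TNF_24h, and 12 without replicate 1 of TNF_6h.

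Guanylate-binding proteins and immunity-related GTPases, which attack the vacuoles of intracellular pathogens, followed the same course, from 206 ± 39.8 summed CPM in Ctrl_0h through 1844 ± 65.8 to 4432 ± 445. Of 16 tested 8 rose and 1 fell, with a median of 1.01. Gbp2 had 263, 267 and 244 CPM at 6 h and 749, 979 and 923 at 24 h (change 1.78 ± 0.18, adjusted p = 1.05e-06), and Gbp3 had 151, 147 and 144 and 456, 566 and 510.0 CPM. Gbp7 rose by 2.26 ± 0.36 and the GTPase genes Igtp, Irgm1 and Irgm2 by 1.36 ± 0.31, 1.00 ± 0.27 and 1.16 ± 0.34. Gbp5 and Gbp6 were not called, at changes of 0.21 and -0.0025, and Gbp8 fell by 0.81. Many members are near-identical copies in 2 clusters on chromosomes 3 and 5, so reads may be split between them. Those called higher numbered 13 with no filter and in the fits of 6 or 9 libraries, and 5 without replicate 1 or 3 of TNF_6h or replicate 2 of TNF_24h. Gbp8 was not called without replicate 1 or 3 of either group.

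Among 26 interferon regulatory factors, STATs, their receptors and their inhibitors 9 rose and 2 fell. The suppressors of cytokine signalling rose furthest. Socs3, which blocks signalling of the IL-6 family (ENSMUSG00000053113, chromosome 11, 117966079 to 117970336), had 9.08, 11.04 and 8.77 CPM at 6 h, 83.6, 90.3 and 85.3 at 24 h and 4.70, 16.5 and 5.25 in Ctrl_0h, a change between the times of 3.16 ± 0.34 (adjusted p = 1.98e-06). Socs1, which blocks the interferon receptors' kinases, had 19.5, 15.96 and 11.8 CPM at 6 h and 98.4, 99.4 and 87.3 at 24 h (change 2.59 ± 0.35). Irf1 (ENSMUSG00000018899, chromosome 11, 53770014 to 53778374) rose from 344, 327 and 328 to 857, 935 and 795 CPM (change 1.37 ± 0.23, adjusted p = 0.000182), and Jak2, Irf2 and Tyk2 rose by 0.95 ± 0.16, 0.84 ± 0.18 and 0.73 ± 0.16. Irf7, an interferon-induced factor, averaged 3183 ± 303 CPM at 6 h and 1476 ± 225 at 24 h and was not called (adjusted p = 0.0919). The receptor chain Ifnar2 and Stat6 fell by 0.40 and 0.42, and 0 or 1 were called lower when any 1 of the 6 libraries was left out, 4 without replicate 2 of Ctrl_0h and 5 in a fit of the 6 libraries alone.

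Antigen presentation on MHC class II, by which macrophages show peptides to CD4+ T cells, was far above Ctrl_0h at 6 h and had come part of the way back at 24 h. The 13 genes tested summed to 4553 ± 484 CPM in Ctrl_0h, 23220 ± 1540 at 6 h and 9669 ± 1400 at 24 h. Of them 7 fell, 1 rose and 5 were not called, with a median change of -1.01. Cd74, the invariant chain that guides class II molecules, had 8601, 7025 and 7421 CPM at 6 h, 3281, 3220.3 and 2231 at 24 h and 1002, 961 and 864 in Ctrl_0h, a change of -1.40 ± 0.15 (adjusted p = 1.89e-06). The alpha chain H2-Aa (ENSMUSG00000036594, chromosome 17, 34282744 to 34287823) had 1461, 1313 and 1339 CPM and then 479, 544 and 446 (change -1.49 ± 0.15), and the beta chains H2-Eb1 and H2-Ab1 fell by 1.66 and 1.01. Ctss, the protease that trims the invariant chain, fell by 1.24. Ciita, the master activator of these genes, was not called, with 50.5 ± 6.76 CPM at 6 h and 45.6 ± 10.9 at 24 h (adjusted p = 0.622). The loading catalysts H2-DMa and H2-DMb1 were not called either, at changes of 0.18 and -0.091. H2-Ob, an inhibitor of loading, was the member that rose, at 2.44 ± 0.455 CPM, and its call was lost when any 1 of the 6 libraries was left out.

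Of 19 MHC class I and immunoproteasome genes tested 8 fell and 1 rose, and the summed level was 9711 ± 1230 CPM in Ctrl_0h, 37760 ± 2450 at 6 h and 24550 ± 2440 at 24 h. All 8 that fell encode heavy chains or beta-2 microglobulin, the light chain: B2m went from 5600.3 ± 152 to 3036 ± 187 CPM (change -0.88 ± 0.14), and the classical heavy chains H2-K1 and H2-D1 fell by 0.83 each. Among nonclassical heavy chains the falls ranged from 0.65 in H2-Q4 to 2.15 in H2-Q6. H2-Q7 had 730.2, 612 and 660.4 CPM at 6 h and 204, 154 and 144 at 24 h, beside 25.4, 25.8 and 25.7 in Ctrl_0h, a change of -1.995 ± 0.28 (adjusted p = 2.65e-05). H2 genes resemble one another closely, so reads may be split between them. Genes that supply peptide were not among those that fell: the transporter Tap2 rose by 0.76 ± 0.21, and Tap1, Psmb8, Psmb10 and Psme2 were not called, at changes of 0.49, -0.052, 0.49 and 0.46. With the length and GC offsets 4 members were called higher, and none was without replicate 2 or 3 of TNF_6h or replicate 1 or 2 of TNF_24h.

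Of 16 ligands that help or restrain T cells 7 rose and 1 fell, with a median of 0.49. Cd40, the receptor through which helper T cells activate macrophages, had 114, 94.7 and 94.7 CPM at 6 h and 452, 481 and 366 at 24 h, a change of 2.10 ± 0.26 (adjusted p = 9.44e-06). Icosl had 12.5, 13.2 and 13.4 and 77.8, 83.2 and 90.9 CPM (change 2.69 ± 0.17, adjusted p = 2.4e-09), with a level at 6 h a little below the 17.5, 14.8 and 15.6 of Ctrl_0h. The adhesion molecules Icam1 and Vcam1 rose by 1.34 ± 0.16 and 2.78 ± 0.42, and the inhibitory ligand Cd274, known as PD-L1, by 0.83 ± 0.25. Cd80 and Cd86, the main ligands of CD28, were not called, at changes of -0.58 and -0.065. Vsir, the checkpoint protein VISTA, fell from 324 ± 12.1 to 165 ± 6.53 CPM and was below its 479 CPM in Ctrl_0h.

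**Figure D4:**
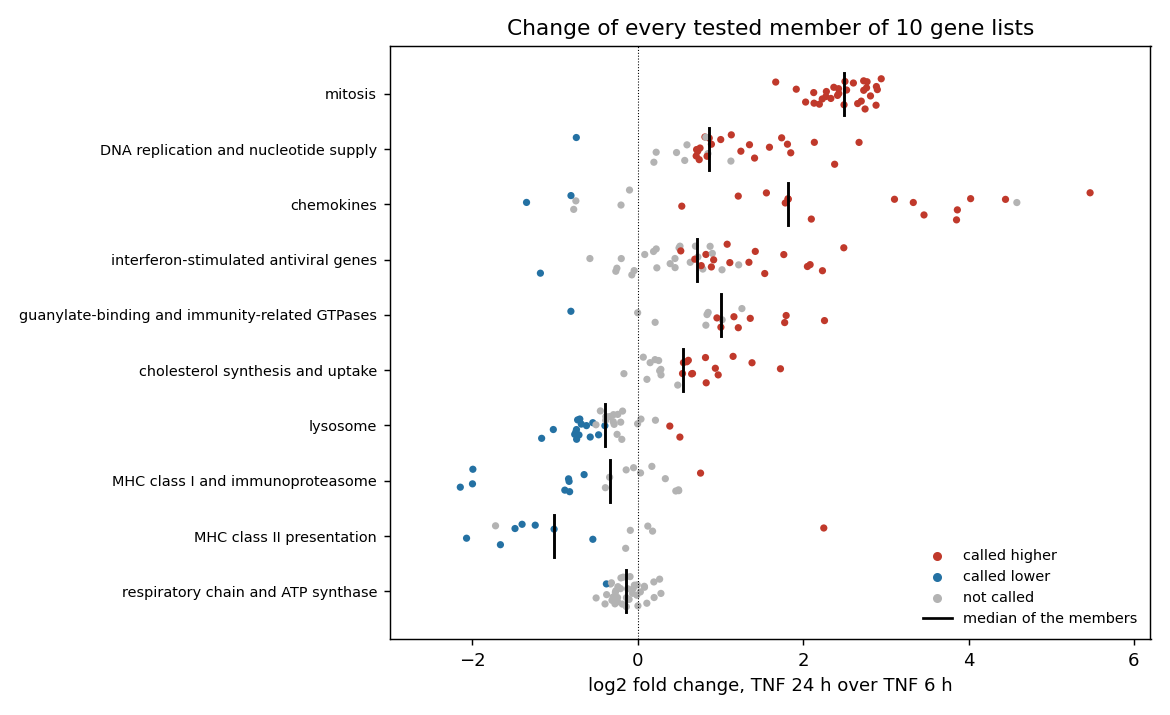
Each point is a tested member of 1 of 10 gene lists, placed by its log2 fold change at 24 h against 6 h, with called members in colour and a bar at the list's median. The 30 mitosis genes span 1.67 to 2.94, chemokines span -1.35 to 5.47, and MHC class II genes have a median of -1.01 with 1 called member on the higher side.

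Among acute phase genes, whose proteins are secreted early in inflammation, 2 fell steeply. Saa3, serum amyloid A3 (ENSMUSG00000040026, chromosome 7, 46711998 to 46719615), had 3.50, 2.40 and 1.14 CPM in Ctrl_0h, 2393, 2166 and 1958 at 6 h and 375, 335 and 192 at 24 h, a change of -2.85 ± 0.28 between the times (adjusted p = 5.75e-07), 7.23-fold. Hp, haptoglobin, which binds free haemoglobin (ENSMUSG00000031722, chromosome 8, 109575128 to 109579172), had 56.5, 58.0 and 44.4 CPM and then 4.83, 2.66 and 2.75 (change -3.95 ± 0.45, adjusted p = 3.23e-06). Of 14 members tested these 2 fell and 2 rose, 28.6% called beside 23.6% over all genes tested. The list's median change was 0.022, and the median level of its members at 6 h was only 0.472 CPM. Both that rose were serpin A3 genes, Serpina3f from 0.838, 1.13 and 0.584 to 10.1, 10.4 and 13.3 CPM and Serpina3g by 2.71 ± 0.46, members of a family of near-identical copies. Since Saa3 held most of the counts, the summed level of the list went from 2346 ± 225 CPM to 457 ± 77.9, beside 10.5 ± 1.09 in Ctrl_0h. With the length and GC offsets 4 members were called lower.

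Complement genes gave 4 that fell and 2 that rose of 17. C3, the central component, had 24.99, 17.5 and 26.2 CPM in Ctrl_0h, 3825, 3488 and 3698 at 6 h and 1014, 1352 and 1378 at 24 h, a change of -1.56 ± 0.17 (adjusted p = 2e-06), and Cfb, factor B of the alternative pathway, had 11.96, 13.8 and 16.5 and 1.52, 1.65 and 2.15 CPM (change -2.99 ± 0.44). The C1q chains C1qa, C1qb and C1qc were not called, at changes of -0.35, -0.10 and -0.30. Without replicate 1 or 3 of TNF_6h or replicate 1 or 2 of TNF_24h, 1 was called higher.

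**Figure D5:**
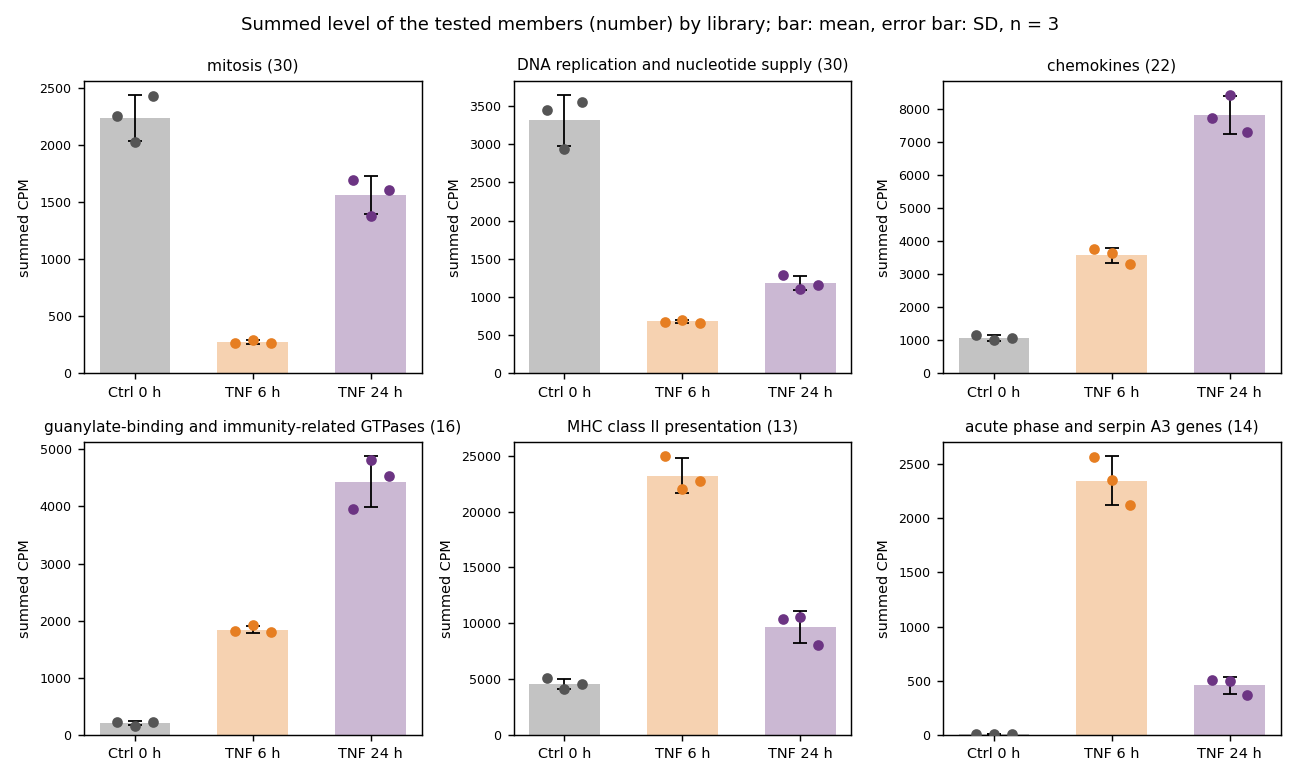
Bars show the summed level (CPM) of the tested members of 6 gene lists in Ctrl_0h, TNF_6h and TNF_24h, with points for the 3 libraries and error bars of 1 SD. Mitosis genes stood at 276 CPM at 6 h and at 1563 CPM at 24 h, chemokines and GTPases climbed at each step, and MHC class II and acute phase genes peaked at 6 h.

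Genes of nitric oxide, itaconate and oxidant production gave 3 higher and 3 lower of 13. Nos2, the inducible nitric oxide synthase, had 53.1, 49.5 and 46.4 CPM at 6 h and 33.5, 52.8 and 48.8 at 24 h, overlapping ranges with no call (adjusted p = 0.892), and Ctrl_0h had 0, 0.947 and 0. Gch1, which makes the cofactor of Nos2, rose from 124, 118 and 110.3 to 252, 260.1 and 214 CPM. Ass1, which rebuilds arginine, the substrate of Nos2, from citrulline (ENSMUSG00000076441, chromosome 2, 31470270 to 31520670), fell from 247, 233 and 232 to 50.9, 60.0 and 48.7 CPM, a change of -2.16 ± 0.15 (adjusted p = 9.38e-09). Acod1, the itaconate synthase, had 541, 556 and 519 CPM and then 1333, 1656 and 1552 (change 1.49 ± 0.18, adjusted p = 5.61e-06). Of the NADPH oxidase subunits Cyba fell by 0.79, and Cybb, Ncf1 and Ncf4 were not called. Oxidative stress and glutathione genes gave 7 that rose and 1 that fell of 23, among them the thioredoxin reductase Txnrd1 (1.14 ± 0.13), the haem oxygenase Hmox1 (0.87 ± 0.16) and both subunits of glutamate-cysteine ligase, Gclm (0.87 ± 0.14) and Gclc (0.47 ± 0.15). Nfe2l2, the factor NRF2 that controls many of them, was not called at 0.028. Without replicate 2 of TNF_24h, 4 were called higher, and 2 were called lower without replicate 1 of TNF_24h.

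Sensors of microbes gave 13 higher and 3 lower of 28 Toll-like receptor, inflammasome and IL-1 receptor genes and a median of 0.33. Nlrp3, the inflammasome sensor, had 72.2, 73.1 and 73.7 CPM at 6 h and 169, 221 and 265 at 24 h (change 1.58 ± 0.21, adjusted p = 1.47e-05). Nod2, a sensor of bacterial cell wall, had 16.3, 15.1 and 16.6 and 40.4, 56.6 and 67.3 CPM, and Tlr2 and Tlr3 rose by 1.11 ± 0.11 and 1.57 ± 0.27. Casp1 and Casp4, the inflammatory caspases, rose by 0.86 ± 0.15 and 1.04 ± 0.19, while the adaptor Pycard and the pore former Gsdmd were not called at -0.038 and -0.049. Tlr4, Tlr7 and Tlr9 were not called, and Tlr13 fell by 0.53. Il18bp, which neutralises IL-18, fell by 1.43, whereas Il18 itself had a change of 0.63 and was not called (adjusted p = 0.092).

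Cell division genes rose between 6 h and 24 h. All 30 mitosis genes tested rose, each at least 2-fold, with changes from 1.67 to 2.94 and a median of 2.499, and the same count of 30 was found under each of the 15 alternatives. Their summed level was 2238 ± 203 CPM in Ctrl_0h, 276 ± 15.4 at 6 h and 1563 ± 164 at 24 h. Mki67, the proliferation marker Ki-67 (ENSMUSG00000031004, chromosome 7, 135689784 to 135716450), had 205, 197 and 223 CPM in Ctrl_0h, 19.9, 26.7 and 18.9 at 6 h and 150.4, 134 and 161 at 24 h, a change of 2.77 ± 0.33 between the times (adjusted p = 5.07e-06). Top2a, a topoisomerase that untangles chromosomes, had 23.4, 30.4 and 22.4 and 196, 170.1 and 221 CPM (change 2.94 ± 0.44). The mitotic kinase Cdk1, whose promoter is shown above, and its cyclins Ccnb1 and Ccnb2 rose by 2.27 ± 0.33, 2.52 ± 0.38 and 2.77 ± 0.45. Pimreg, a gene of the mitotic exit outside the list, rose by 3.10 ± 0.50.

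DNA replication genes rose in most cases. Of 30 tested 21 rose, 1 fell and 8 were not called, with a median of 0.86, and their summed level of 1183 ± 91.3 CPM at 24 h lay nearer to the 681 ± 18.2 of 6 h than to the 3312 ± 333 of Ctrl_0h. The initiation factor Mcm10 had 8.58, 9.40 and 9.04 CPM at 6 h, 60.1, 51.4 and 61.1 at 24 h and 48.9, 46.0 and 54.8 in Ctrl_0h (change 2.68 ± 0.40). Of nucleotide supply genes, the thymidine kinase Tk1 had 14.1, 16.3 and 14.1 and 99.5, 66.8 and 65.8 CPM but 273, 289.5 and 296 in Ctrl_0h, and Rrm2 rose by 2.13 ± 0.54. The helicase genes Mcm4 and Mcm6 were not called at 0.59 and 0.47, nor was the sliding clamp Pcna at 0.22. Cdt1, which licenses origins and is destroyed in S phase, was the member that fell, from 57.3 ± 5.85 to 34.2 ± 1.93 CPM.

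Regulators of the G1 phase gave 6 that rose and 2 that fell of 20, and both brakes and drivers were among them. Cdkn1a, the CDK inhibitor p21 (ENSMUSG00000023067, chromosome 17, 29090979 to 29100722), had 119.6, 94.6 and 135 CPM in Ctrl_0h, 256, 246 and 245 at 6 h and 1034, 1213 and 1079 at 24 h, a change of 2.15 ± 0.14 (adjusted p = 5.57e-09). It was thus higher at 24 h, when the mitosis genes were higher too, than at 6 h. Cdkn2c, the inhibitor p18, had 22.1, 24.3 and 23.9 and 115, 95.4 and 108 CPM, and the cyclins Ccnd1 and Ccnd2 rose by 1.26 ± 0.23 and 2.01 ± 0.39. Cdkn1c and E2f1 fell by 0.91 and 0.47. Cdk4 and Cdk2 were not called at -0.14 and -0.35. The number called lower was 1 without any 1 of the 6 libraries other than replicate 1 of TNF_24h, 4 in the 6 libraries alone or without replicate 2 of Ctrl_0h, and 5 with the length and GC offsets.

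Cholesterol synthesis and uptake genes gave 13 of 23 higher, none lower and a median of 0.55. Enzymes of the pathway that rose include Idi1 (1.38 ± 0.17), Sqle (0.82 ± 0.11) and Cyp51 (0.97 ± 0.10). Idi1 had 19.5, 23.8 and 25.2 CPM at 6 h and 55.6, 62.4 and 60.2 at 24 h, and Cyp51 had 29.2, 29.4 and 29.5 and 58.4, 54.7 and 59.5, with no overlap in either. Srebf2, the factor that controls the pathway, rose by 0.55 ± 0.16, while Insig1, which holds it back, was not called at 0.25. Ch25h, which makes 25-hydroxycholesterol, a brake on this pathway, rose as well, from 6.80, 7.13 and 6.09 to 59.5, 75.8 and 52.2 CPM (change 3.23 ± 0.22). Soat2, which esterifies cholesterol for storage, fell from 22.6, 19.3 and 26.7 to 3.16, 2.42 and 1.85 CPM (change -3.20 ± 0.41).

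Genes of cholesterol efflux, LXR targets and fatty acid synthesis gave 2 higher and 4 lower of 20, 30% called beside 23.6% over all genes tested. The efflux pump Abca1 and the carrier Apoe were not called, Abca1 at 0.37 and Apoe with 6457, 5238 and 5648 CPM at 6 h and 8107, 7161 and 4791 at 24 h (adjusted p = 0.627). Npc2, which exports cholesterol from lysosomes, had 4112, 3783 and 3543 and 1912, 1795 and 1434 CPM (change -1.15 ± 0.17), Apoc2 fell by 1.504, and the desaturase Fads2 rose by 1.95 ± 0.17. Without replicate 2 or 3 of TNF_6h or replicate 3 of TNF_24h, 1 was called higher. In lipid uptake, droplets and beta oxidation 3 rose and 6 fell of 21. Lpl, lipoprotein lipase, had 1973, 2119.9 and 1820.0 CPM and 4320.2, 4267 and 4055 (change 1.10 ± 0.14), while the fatty acid binding proteins Fabp5 and Fabp4 had 768, 668 and 657 and 219, 201 and 179, and 82.0, 74.5 and 84.9 and 28.1, 23.1 and 19.4 CPM. Plin2, which coats lipid droplets, and Pparg fell by 0.82 and 0.94, and the mitochondrial importer Cpt1a rose by 0.82 ± 0.14.

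Among 37 respiratory chain and ATP synthase genes of the nuclear genome 1 fell (Ndufs3, by 0.38) and none rose, and with the length and GC offsets 8 fell and 1 rose. Ndufs3 was called in none of the 6 fits that each left out 1 library of the compared times except that without replicate 1 of TNF_24h, in which 5 members were called lower, and 1 rose without replicate 3 of TNF_24h. Glycolysis gave Slc2a1 and Pfkp higher (0.56 ± 0.15 and 0.32 ± 0.11) and Tpi1 and Aldoa lower (-0.63 ± 0.17 and -0.47 ± 0.14). None of its 17 genes was called higher without replicate 3 of TNF_6h or replicate 2 of TNF_24h and 1 without replicate 1 or 2 of TNF_6h, while none was called lower without replicate 3 of TNF_24h and 1 without replicate 1 of TNF_6h. In the TCA cycle Idh3b, Sdhb and Sdhd fell by 0.61, 0.58 and 0.35, and Idh3a rose by 0.40 ± 0.13, a call lost without replicate 1 or 3 of TNF_6h or replicate 2 or 3 of TNF_24h. Of 16 hypoxia response genes 2 rose and 6 fell. Vegfa, the vascular growth factor, had 87.7, 88.7 and 103 CPM at 6 h and 27.4, 28.9 and 34.8 at 24 h, beside 21.7, 17.8 and 23.3 in Ctrl_0h (change -1.62 ± 0.14, adjusted p = 1.32e-07), and the other falls lay between 0.42 and 2.03. With no filter, or without replicate 1 of TNF_24h, 3 of these were called lower, and 1 was called higher without replicate 1 or 3 of either group.

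Of 33 lysosome genes tested 15 fell, 2 rose and 16 were not called, with a median of -0.40, and their summed level was 44250 ± 4770 CPM in Ctrl_0h, 65840 ± 3590 at 6 h and 44950 ± 2250 at 24 h. Cathepsins held the largest falls, Ctsk by 1.16, Ctsh by 1.02 and Ctsz by 0.76. Ctsh had 315, 288 and 311 CPM at 6 h and 164, 158 and 129 at 24 h, beside 167, 145 and 146 in Ctrl_0h, and Ctsz had 6921, 5832 and 6843 and 4431, 4079 and 3031. The membrane proteins Lamp1 and Lamp2 were not called at -0.30 and -0.21, nor was Tfeb, the factor that controls lysosome genes, at -0.51. Atp6v1b2 and Atp6v1h, subunits of the proton pump, were the 2 that rose, and another subunit, Atp6v1a, fell by 0.62. Between 11 and 23 members were called lower over the alternatives, 23 of them in the 6 libraries alone. Without replicate 1 or 3 of TNF_6h or replicate 1 or 2 of TNF_24h, 1 was called higher. Sgsh, a lysosomal sulfatase outside the list (ENSMUSG00000005043, chromosome 11, 119343489 to 119355510), fell further, from 41.4, 33.4 and 39.4 to 6.63, 4.73 and 6.69 CPM (change -2.66 ± 0.16, adjusted p = 2.4e-09), with 62.6, 55.8 and 55.7 in Ctrl_0h. Its neighbour Slc26a11, a sulfate carrier, fell from 37.6, 37.4 and 42.6 to 9.03, 8.82 and 8.48 CPM (change -2.16 ± 0.18). The RefSeq spans of these 2 genes overlap by 2 bases at their ends.

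Osteoclast and cell fusion genes, which TNF and M-CSF can raise in this lineage, gave 1 higher and 3 lower of 13. These made up 30.8% of the list, not far above the 23.6% called over all genes tested. The falls were those of Ctsk, Acp5 (0.71) and Atp6v0d2 (0.47). Atp6v0d2 was not called with no filter (adjusted p = 0.0606), nor without replicate 1 of TNF_6h (0.0511) or replicate 1 (0.0579) or 2 (0.0522) of TNF_24h. Cd9 rose by 0.35 ± 0.11, a call lost without replicate 1 of TNF_6h or replicate 1 or 2 of TNF_24h. Among 24 metalloproteinases, matrix and tissue factors 7 rose and 5 fell. The collagenase Mmp13 had 4.32, 5.16 and 3.92 CPM at 6 h and 11.5, 14.0 and 14.7 at 24 h, and the urokinase receptor Plaur rose by 1.10 ± 0.16. Mmp9 and Mmp14, both far above Ctrl_0h at 6 h, were not called at 0.046 and -0.62, and the coagulation factor F10 fell from 101, 93.3 and 94.9 to 57.5, 57.4 and 45.9 CPM. Without replicate 2 of TNF_6h or of TNF_24h 2 were called lower, and without replicate 1 of TNF_24h 3 were. Vcan, a matrix proteoglycan outside the list, rose from 1.04, 2.09 and 1.55 to 10.2, 12.3 and 19.0 CPM (change 3.14 ± 0.32).

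Among 24 macrophage identity genes 2 rose and 8 fell. Csf1r, the receptor for M-CSF, had 4309, 4117 and 3869 CPM at 6 h and 3828, 4082 and 3955 at 24 h and was not called (adjusted p = 0.817), and the lineage factor Spi1 had a change of 0.24 and no call. The transcription factor Maf rose by 0.68 ± 0.20. Aif1, Mpeg1 and Lyz2 fell by 1.28, 0.82 and 0.46. Siglec1, a sialic acid receptor known to follow interferon, had 391.9, 415 and 402 CPM at 6 h and 85.9, 133 and 219 at 24 h (adjusted p = 0.0212). Of the 6 fits that each left out 1 library of the compared times, it was called only in the one without replicate 3 of TNF_24h, the library nearest to the 6 h level. Without replicate 1 of TNF_6h or replicate 2 of TNF_24h 5 members were called lower, and 1 was called higher without replicate 3 of either group.

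Of 22 lectin, scavenger and resident macrophage genes 7 rose and 4 fell. The mannose receptor Mrc1 had 185, 125 and 173 CPM in Ctrl_0h, 26.9, 29.2 and 25.96 at 6 h and 63.5, 61.3 and 78.3 at 24 h (change 1.31 ± 0.15, adjusted p = 4.89e-06), and the scavenger receptors Msr1 and Marco rose by 0.65 ± 0.12 and 0.84 ± 0.21. The lectin genes Clec4n and Clec7a, which bind fungal sugars, fell by 1.54 and 0.54, and Clec4e, which shares that role, was not called at 0.063. Fc gamma and paired receptors gave 1 higher (Treml4, at 5.53 ± 1.62 CPM) and 6 lower of 19. Cd300lf, an inhibitory receptor for lipids, had 12.6, 12.6 and 12.2 CPM at 6 h and 2.92, 3.22 and 2.75 at 24 h (change -2.07 ± 0.23), and Pilrb2 and Pilrb1, near-identical copies, fell by 1.40 and 0.93. The call of Pilrb1 was lost when any 1 of the 6 libraries was left out. Sirpb1c, another paired receptor, outside the list, fell from 34.0, 39.1 and 33.8 to 3.01, 3.89 and 3.38 CPM (change -3.38 ± 0.18), and it too belongs to a family of near-identical copies.

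Genes known for alternative activation, the state that IL-4 and IL-13 induce, gave 8 higher and 2 lower of 22 in cells that received neither. Apart from Ccl22, Socs1 and Mrc1 they were Tfec, a transcription factor that had 25.1, 25.2 and 23.8 CPM at 6 h and 109, 113 and 98.2 at 24 h (change 2.11 ± 0.12, adjusted p = 1.17e-09), the receptor chain Il13ra1 (1.32 ± 0.23), Slc7a2 (0.82 ± 0.25) and the weakly expressed Fn1 and Ccl24, at 1.33 ± 0.343 and 2.05 ± 0.394 CPM. The genes most used as markers of that state were not among them: Arg1, Chil3 and Retnla had at most 0.0522 CPM on average at either time and were not called. Pparg and Clec10a fell by 0.94 and 0.69.

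Prostaglandin and leukotriene enzymes gave 5 higher and 4 lower of 17. Pla2g4a, which frees arachidonic acid, rose from 21.3, 24.0 and 20.9 to 39.1, 46.1 and 47.5 CPM, while Ptgs2, the enzyme COX-2, averaged 10.3 ± 1.76 and 22.7 ± 5.71 CPM and was not called (adjusted p = 0.113). Ptges rose by 0.78 ± 0.26, a call lost when any 1 of the 6 libraries was left out. Pla2g7, which breaks down platelet-activating factor, had 199.8, 219 and 174 CPM and then 35.6, 43.6 and 33.9 (change -2.39 ± 0.16, adjusted p = 7.59e-09), and Ptger2, a receptor of prostaglandin E2, fell by 3.77 at 4.82 ± 1.06 CPM at 6 h. Without replicate 1 of TNF_6h 2 were called higher and 2 lower, without replicate 3 of TNF_6h 3 higher, without replicate 1 or 2 of TNF_24h 2 or 3 higher, and without replicate 3 of TNF_24h 2 lower.

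Iron handling and metallothionein genes gave 5 higher and 4 lower of 15. Fth1, the ferritin heavy chain, averaged 31980 ± 3544 CPM at 6 h and 20595 ± 4478 at 24 h and fell by 0.63, and the phagosomal metal carrier Slc11a1 fell from 734, 732 and 688 to 371, 411 and 384 CPM. The zinc exporter Slc30a1 rose by 1.03 ± 0.23, and the metallothioneins Mt1 and Mt2, which bind zinc, rose by 0.70 ± 0.16 and 2.66 ± 0.34. Among 26 genes of amino acid stress and the unfolded protein response 5 rose and 6 fell. Ddit3, the stress factor CHOP (ENSMUSG00000025408, chromosome 10, 127290793 to 127296291), had 52.3, 47.4 and 46.0 CPM in Ctrl_0h, 185, 162 and 169.7 at 6 h and 46.6, 41.1 and 32.2 at 24 h, a change of -2.11 ± 0.18 (adjusted p = 9.11e-08), and its target Trib3 had 25.1, 18.4 and 21.9 and 5.59, 4.45 and 6.92 CPM. The serine synthesis genes Psat1, Phgdh and Psph rose by 2.12 ± 0.22, 0.95 ± 0.13 and 0.62 ± 0.16, and Psat1 went from 6.94, 7.43 and 8.39 to 30.7, 29.8 and 38.4 CPM, near the 35.6, 29.8 and 38.2 of Ctrl_0h. The chaperone Hspa5 and the factors Atf4 and Xbp1 were not called, at 0.075, -0.075 and -0.16. Without replicate 3 of TNF_24h 3 were called higher.

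Some of the largest changes lay outside these lists. Cd69, an early marker of activated leukocytes, had 7.44, 8.74 and 8.97 CPM at 6 h and 92.2, 115 and 104 at 24 h, beside 0.374, 0.406 and 0.522 in Ctrl_0h (change 3.63 ± 0.36, adjusted p = 6.13e-07). Lad1, a filament anchor, and Tarm1, a receptor of myeloid cells, rose by 3.41 ± 0.43 and 3.19 ± 0.20 from about 1 CPM. Ly6a, the surface protein Sca-1, fell from 44.4, 45.5 and 41.9 to 8.42, 7.14 and 4.64 CPM, and Gngt2, a G protein subunit, fell from 492, 434 and 481 to 109.6, 93.8 and 65.1 (change -2.39 ± 0.24). Chchd10, a mitochondrial protein, and Rhov, a small GTPase, fell by 2.45 and 2.18.

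Ighm, which encodes the mu heavy chain of antibodies (ENSMUSG00000076617, chromosome 12, 113418826 to 113422730), rose from 1.94, 1.43 and 1.82 to 35.1, 42.0 and 33.7 CPM (change 4.42 ± 0.33, adjusted p = 2.54e-08), and Ctrl_0h had more, 88.5, 71.3 and 92.9 CPM. Other defining B cell markers were near 0 in the same libraries. Pax5 had no count at 6 h or 24 h, Cd79a had at most 0.791 CPM in these 6 libraries, and Igkc at most 0.426. The 10 B cell markers summed to 2.41 to 3.47 CPM at 6 h, 34.5 to 42.9 at 24 h and 82.5 to 94.0 in Ctrl_0h, nearly all of it Ighm.

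The RNA mt-Rnr1, a mitochondrial ribosomal RNA, had 555, 543 and 512 CPM at 6 h and 91.2, 2.21 and 1.75 at 24 h. Replicate 1 of TNF_24h thus lay far above the other 2 of its group, while in Ctrl_0h replicate 2 lay far below the others, with 91.3, 0.981 and 88.4 CPM in replicates 1 to 3. The change of -4.08 ± 1.19 was called (adjusted p = 0.0167), but not without replicate 2 (adjusted p = 0.0651) or replicate 3 of TNF_24h (0.0586), nor in the fit of 9 libraries (0.0729). Without replicate 1 of TNF_24h it was -8.08 (adjusted p = 0.000175). The share of all mitochondrial counts moved in the opposite direction, as given above.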

How the data were processed

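RNA from 21 samples of bone-marrow-derived macrophages was sequenced, 3 libraries in each of 7 groups. The deposited table holds raw counts per gene, which the authors made with TopHat2 2.0.12 and featureCounts of Subread 1.6.3 on GRCm38, and the notes also name edgeR 3.28.1, per the submitters' processing notes. The annotation, the strand setting and the counting of read pairs are, for this table, not given in the sources used here. Even values were more common than odd ones at the low end (30373 values of 2 and 17808 of 1, 14538 of 4 and 9055 of 3), so counting error may be larger than whole numbers imply.

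All 21 libraries (28063252 to 48654300 counts) were fitted together in edgeR 4.0.16 (R 4.3.3) with 1 term per group, TMM scaling, filterByExpr and the quasi-likelihood F test. P values were adjusted by Benjamini-Hochberg over the 15581 genes tested, with calls made below 0.05. Standard errors are the log2 fold change divided by the square root of F. Tested genes held 99.94% of counts. The fit was tested on simulated data.

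Named genes are the 15 called genes with the largest rise and the 15 with the largest fall (at least 10 CPM in the higher group, no overlap between the groups, no predicted genes), up to 3 called members per list with the largest change and at least 10 CPM, and 24 genes taken whatever their result. Other list members given as examples, and the promoters shown, were chosen after their values were seen. The comparison and the gene lists were chosen with earlier results of these data known. Gene positions are RefSeq spans on GRCm38.p6. Alternatives were DESeq2 1.42.0 and its size factors, other filters, fits of fewer libraries, a replicate block and, chosen after seeing the data, offsets for length and GC content and a fit without replicate 2 of Ctrl_0h. Results of some genes are not reported here.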

Additional observations from a re-analysis of the deposited data

How the results depend on the processing

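The number of genes higher at 24 h was 1980 and ranged from 1452 to 2256 over 15 alternatives, and the number lower was 1695 and ranged from 1197 to 2532, all within 1.5 times. Leaving out each of the 6 libraries in turn gave 1452 to 1905 higher and 1197 to 1524 lower. Genes called in an alternative as well as in the result reported made up between 70.9% (without replicate 1 of TNF_6h) and 99.9% (without replicate 2 of Ctrl_0h, added after seeing the data) of the 3675. With the offsets for length and GC content, also added after seeing the data, 2101 were higher and 2532 lower of 12852 genes tested. Of these calls 45.3% were higher, beside 53.9% in the result reported, which tested 15581 genes. The fits thus differ in the genes tested as well as in the offsets. The DESeq2 Wald test gave 2256 and 1983.

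With the replicate number as a block 1967 genes were higher and 1707 lower. The numbers were not taken as pairs because the labels do not say that a number marks a shared mouse, culture or day. Deviations from the group means correlated at 0.098, -0.0346 and 0.0491 between libraries of the same number. With 3 libraries per group these values cannot decide whether the libraries were paired. Not every library correlated best with its own number.

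Of the 135 named genes called, 123 kept direction and call under every alternative run, while Cxcl10, Ly6a and Rsad2 have no adjusted p in the DESeq2 Wald test. Nos2, not called at -0.14, had changes from -0.27 (without replicate 2 of TNF_24h) to 0.034 (adjusted p = 0.987, without replicate 1 of TNF_24h), and the cause was not tested. Depth limits genes of few counts such as Il6.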
